A study of Mus musculus with 3 samples.

Results

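FLI1 is a transcription factor of the ETS family that megakaryocytes need to mature, and the regions described here are places at enhancer distance from genes where the FLI1 reads of mature mouse megakaryocytes were many and the RUNX1 reads were few. They were chosen by measured values: 400-bp bins of the mm9 genome with 100 or more FLI1 reads, fewer than 6 RUNX1 reads and fewer than 15 input reads, whose centre lay 5 to 50 kb from the nearest transcription start site (TSS) of a protein-coding gene. Of 6637229 bins, 2425688 lay at that distance and 2098 of these (0.0865%) met all limits. Adjacent bins were merged into 1968 regions, of which 1844 were a single bin, 118 held 2 bins and 6 held 3. Among the 2558 bins at this distance with 100 or more FLI1 reads, 438 had too many RUNX1 reads and 155 too many input reads, 133 of them both. Since reads chose the regions, their FLI1, RUNX1 and input counts are given as a description only. No chromatin mark was part of these data, so the word enhancer stands for distance to the TSS and nothing else.

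The cells were wild-type CD1 megakaryocytes grown from fetal livers in thrombopoietin and collected at the mature stage, MK_Mat, after 5 days. The labels give embryonic day 15 and the methods day 14. There is 1 FLI1, 1 RUNX1 and 1 input library, each pooled from 3 or more precipitates or preparations, so nothing here has a replicate, no test between conditions was possible, and all intervals below are exact 95% binomial or Poisson intervals that cover counting error only. After removal of reads on chromosome M and of repeated positions, the libraries held 62946422 FLI1, 3973856 RUNX1 and 21745220 input reads. The FLI1 library is thus far deeper, and a limit of 6 RUNX1 reads sits close to what so shallow a library can resolve: a region with few RUNX1 reads is not shown to lack RUNX1. The study gives a far higher number of mapped RUNX1 reads than this file holds, and why was not tested, so few RUNX1 reads means few in the file used here. The labels name sonication, whereas the methods name micrococcal nuclease for an input that may be this one, and the ChIP and input reads differ in length, 50 and 34 bp. The study removed erythroid and myeloid cells with antibodies and measured RNA on arrays, but the files used here hold no RNA, so cell identity is looked at only through gene loci below.

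ETS proteins bind DNA through a domain that reads the core GGAA, and the bases beside that core set how tightly each family member holds it. In megakaryocytes FLI1 works with RUNX1, GATA1 and NF-E2 on genes for platelet receptors, granules and the cytoskeleton that drives proplatelets out of the cell. Many such genes are controlled from distal enhancers in introns or between genes, where several of these factors sit side by side. Loss of FLI1 in mice or people leads to too few platelets.

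The sequences below show what lay under the FLI1 summit, the point covered by most FLI1 fragments, at 6 of the 12 regions with the most reads, and at an upstream region of the Fli1 gene itself. Each is the plus strand of the mm9 reference from 40 bp before to 40 bp after the summit, named by the gene with the nearest TSS. Capitals mark an ETS heptamer, CCGGAAG or CCGGAAA or CAGGAAG or CAGGAAA, on either strand.
Nt5m, chr11:59698960-59699040: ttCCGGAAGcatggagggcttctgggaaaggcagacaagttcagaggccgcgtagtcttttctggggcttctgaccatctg
Sfxn3, chr19:45132920-45133000: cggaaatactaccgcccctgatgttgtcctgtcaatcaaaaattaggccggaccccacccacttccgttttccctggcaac
Atp2a3, chr11:72768991-72769071: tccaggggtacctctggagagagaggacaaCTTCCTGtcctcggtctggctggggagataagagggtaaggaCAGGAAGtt
Hivep2, chr10:13702852-13702932: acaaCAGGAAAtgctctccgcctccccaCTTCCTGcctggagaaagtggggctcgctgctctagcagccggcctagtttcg
Slc35d3, chr10:19535355-19535435: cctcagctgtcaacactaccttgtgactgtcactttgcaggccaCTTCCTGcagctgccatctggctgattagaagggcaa
Homer3, chr8:72800488-72800568: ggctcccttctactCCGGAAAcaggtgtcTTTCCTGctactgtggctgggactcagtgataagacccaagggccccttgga
Fli1, chr9:32364042-32364122: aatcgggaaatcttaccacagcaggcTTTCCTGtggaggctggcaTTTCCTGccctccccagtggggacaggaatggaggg
The Nt5m window held the CCGGAA form, the Atp2a3, Hivep2, Slc35d3 and Fli1 windows held the CAGGAA form, and the Homer3 window held both. The Sfxn3 window held no heptamer, although its 400-bp bin held 4. The printed windows are not simply those with the most reads: Pitpnm2, Lrrc8b and 5031414D18Rik ranked above Hivep2 and are not shown. Their windows held 1, 0 and 1 heptamers.

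The strongest region lay between genes on chromosome 11, 37425 bp downstream of the TSS of Nt5m, which encodes a mitochondrial nucleotidase, and its highest bin held 439 FLI1, 4 RUNX1 and 7 input reads. The next, 10666 bp downstream of Sfxn3, a mitochondrial serine carrier, held 415 FLI1, 1 RUNX1 and 8 input reads. The third lay 5640 bp upstream of Atp2a3, the calcium pump SERCA3 of platelets, with 371 FLI1, 2 RUNX1 and 9 input reads. The limits set the order of the libraries in every region, FLI1 above RUNX1 and input, before and after scaling to library size. A region with 342 FLI1, 2 RUNX1 and 2 input reads lay 35870 bp downstream of Slc35d3, a nucleotide sugar transporter that platelet dense granules need. Homer3, a scaffold protein, had a region with 339 FLI1, 4 RUNX1 and 7 input reads 6198 bp upstream. Tpst2, which adds sulfate to tyrosines of secreted and membrane proteins, had one in its own intron with 325 FLI1, 4 RUNX1 and 9 input reads. The other 6 of the 12 lay nearest to Pitpnm2, Lrrc8b, 5031414D18Rik, Hivep2, Idh2 and Lyve1, and held between 324 and 364 FLI1 reads with 0 to 5 RUNX1 and 2 to 10 input reads. The nearest TSS was not always that of the gene around the region: the Lyve1 region lay in an intron of Mrvi1, which encodes a calcium-release regulator of platelets, the Idh2 region in an intron of Zfp710, and the Pitpnm2 region over an exon of Mphosph9. The Homer3 region lay within the whole record of the gene Sugp2, though outside any protein-coding transcript. Scaled to library size as RPM, the 12 held 5.15 to 6.97 FLI1, 0 to 1.26 RUNX1 and 0.092 to 0.46 input.

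**Figure D1:**
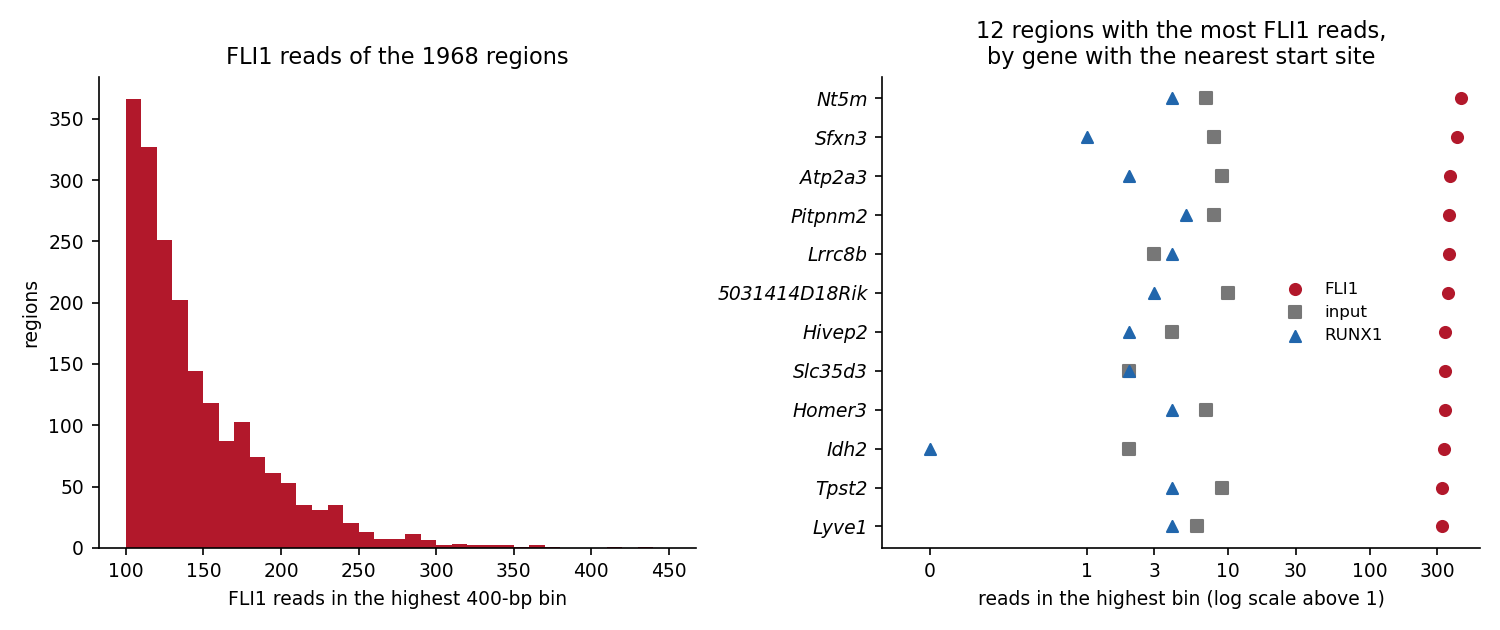
Left, FLI1 reads in the highest 400-bp bin of each of the 1968 regions (x axis, reads; y axis, number of regions). Right, reads of each library in the highest bin of the 12 regions with the most FLI1 reads (x axis, reads, log scale above 1), with FLI1 at 324 to 439 reads and RUNX1 and input at 10 or fewer.

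Most regions were far weaker than these. The FLI1 count of the highest bin ran from 100 to 439 with a median of 131, where the median over all bins at 5 to 50 kb was 10 reads. The count fell between 100 and 124 in 837 regions, between 125 and 149 in 453, between 150 and 199 in 443, between 200 and 299 in 218, and reached 300 in 17. The limit of 100 cut through a continuous slope: 198 bins held 100 to 104 FLI1 reads and 281 bins that met the other limits held 95 to 99, with mean RUNX1 counts of 1.68 and 1.79 and mean input counts of 5.82 and 5.80. Both strands contributed to each bin: between 36.97% and 67.94% of the FLI1 reads of a member bin were on the plus strand.

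Aligned at the summits, the FLI1 reads formed a narrow peak, which the alignment itself shapes, since the summit was placed where 126-bp fragments drawn from these same reads overlapped most. Their density was 13 RPKM (reads per kilobase, scaled to the size of the library) within 50 bp of the summit, 2.64 RPKM at 100 to 200 bp and 0.817 RPKM at 500 to 1000 bp. RUNX1 reads also peaked at these FLI1 summits, although every member bin had been held under 6 RUNX1 reads. RUNX1 density was 2.12 RPKM (2.02 to 2.22, 1657 reads over 1968 regions) within 50 bp, 1.15 RPKM (1.09 to 1.20) at 100 to 200 bp and 0.652 RPKM (0.634 to 0.67) at 500 to 1000 bp. Seen by bin, 15.63% of member bins held no RUNX1 read, against 58.69% of all bins at 5 to 50 kb, and the mean was 2.174 against 0.632 reads. The rule itself used the RUNX1 and input counts of these bins, so these values describe the regions and are no test of RUNX1 binding. Input reads moved in the same direction by less: 0.73 RPKM (0.705 to 0.757) within 50 bp, 0.641 (0.617 to 0.666) at 50 to 100 bp, 0.709 (0.691 to 0.727) at 100 to 200 bp and 0.53 (0.524 to 0.537) at 500 to 1000 bp. The input curve dipped on both sides of the summit, 50 to 100 bp away. The part of the input in the RUNX1 peak was not tested.

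**Figure D2:**
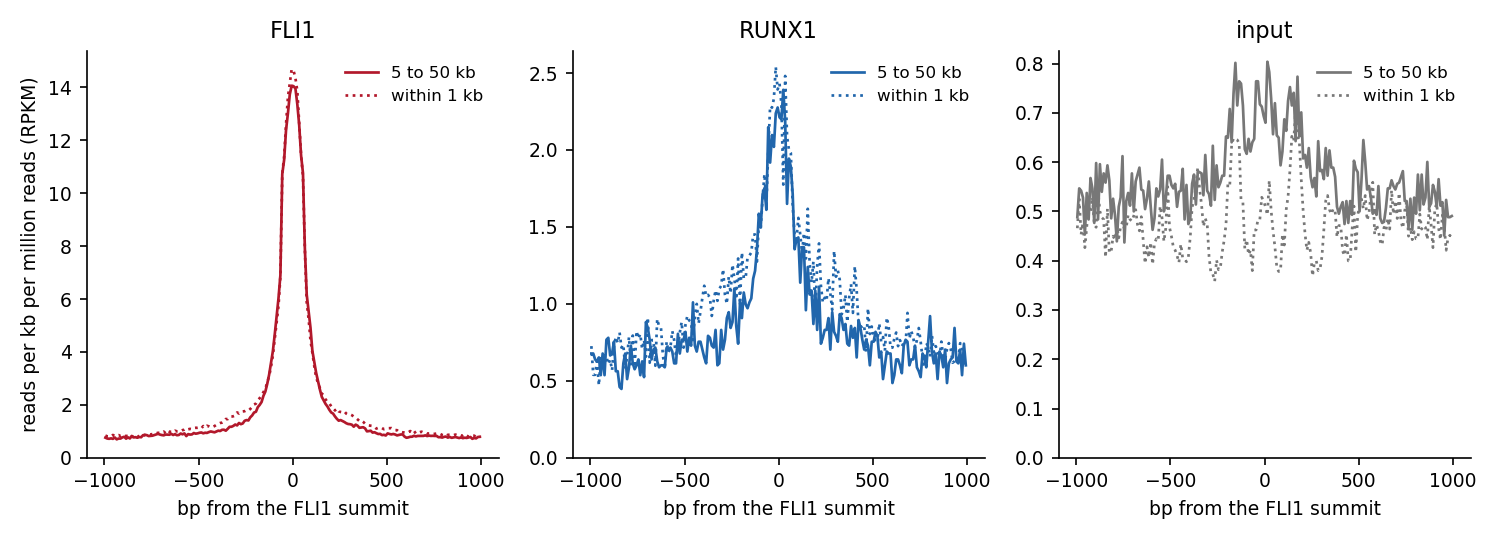
Read density (y axis, RPKM; one scale per panel) against distance from the FLI1 summit (x axis, bp) for the FLI1, RUNX1 and input libraries, as solid lines for the 1968 regions at 5 to 50 kb and dotted lines for 2566 regions with the same read limits within 1 kb of a TSS. Both ChIP libraries peaked at the summit, and the input of the distal regions rose from 0.53 RPKM at 500 to 1000 bp to 0.73 RPKM within 50 bp.

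Sequence took no part in the choice of the regions, so what they share in sequence is a measurement of its own. An ETS heptamer stood in the highest bin of 1602 of 1968 regions (81.4%, 79.6 to 83.1), whereas 25.8% of all 2416565 bins without undetermined bases at 5 to 50 kb held one. Within 50 bp of the summit the share was 69.8% (67.7 to 71.8), against 9.32% (8.43 to 10.3) in windows of the same width centred 500 bp to either side. The bare core GGAA, which is part of each heptamer and common in any sequence, was within 50 bp of the summit in 98% of regions and in 64% of the flanking windows. Where a heptamer lay within 300 bp, its median distance from the summit was 16 bp, and in 1101 regions (55.9% of all) it was at most 25 bp. The summits were placed by reads alone, so this closeness is not a product of the motif search.

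The share of bins with a heptamer climbed with the FLI1 count across all bins at this distance that met the RUNX1 and input limits. It was 23.4% in bins of 0 to 9 FLI1 reads, 37.9% at 20 to 29, 58.4% at 30 to 49, 72.3% at 75 to 99, 77.3% at 100 to 124 and 89.5% (84.9 to 93.1) at 200 to 439. Nothing changed abruptly at the limit of 100: the heptamer share was 78.8% (72.4 to 84.3) in bins of 100 to 104 reads and 77.2% (71.9 to 82) in bins of 95 to 99. RUNX motifs, TGTGGT or TGCGGT on either strand, went from 28.1% of bins with 0 to 9 FLI1 reads to 44.4% at 100 to 124 and 46.6% at 200 to 439. GATA motifs, AGATAA or AGATAG or TGATAA or TGATAG on either strand, stayed between 54% and 63.8% over all classes. GC content moved along with the FLI1 count, from a mean of 42.6% to 50.8%, and its part in these shares was not tested.

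**Figure D3:**
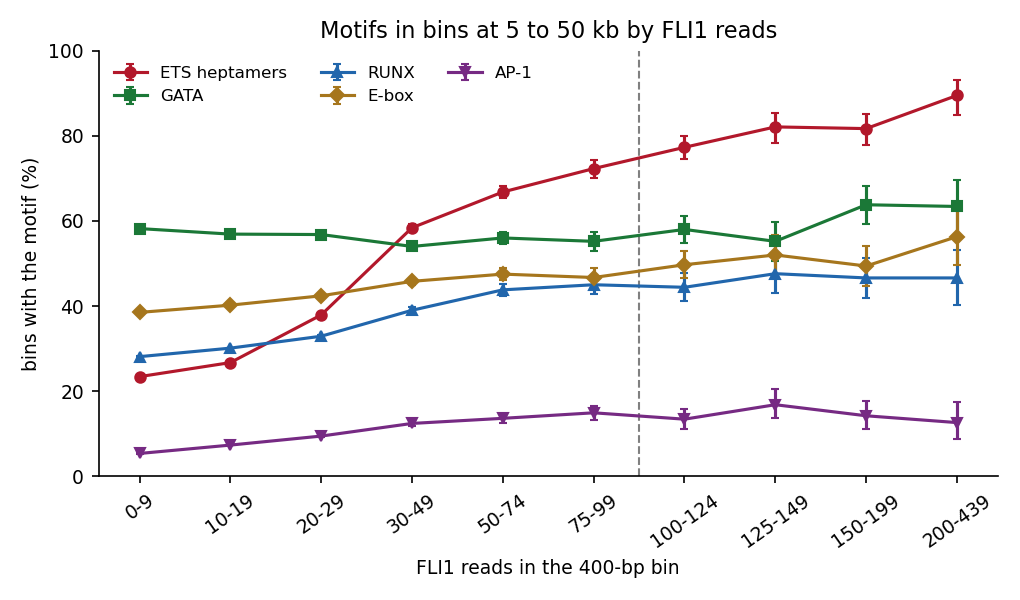
Share of 400-bp bins at 5 to 50 kb with a motif (y axis, %) by the FLI1 reads of the bin (x axis, classes of reads), with exact 95% intervals as bars. The dashed line is the limit of 100 reads that the regions had to reach, and the ETS heptamers rise from 23.4% in the lowest class to 89.5% in the highest.

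More heptamers came with somewhat more reads. The highest bin held no heptamer in 366 regions, 1 in 792, 2 in 575, 3 in 184 and 4 or more in 51, and the median FLI1 counts of these classes were 125, 126, 136, 150 and 147 reads. The spread within a class was wider than these steps: the middle 50% of regions held 110 to 156 reads with no heptamer and 118 to 189.2 with 3. Regions without a heptamer reached high counts as well. The region in an intron of Lrrc8b, a subunit of volume-regulated anion channels, held 362 FLI1 reads and no heptamer in its bin, and one 10811 bp upstream of the nearest TSS of Prkcq, protein kinase C theta, held 294 and none.

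Of the 594 regions without a heptamer at the summit, 555 still held GGAA there. In these GAGGAA was present in 49.5% (45.3 to 53.8) against 9.91% of flanking windows, GCGGAA in 10.5% (8.03 to 13.3) against 1.17%, and ACGGAA in 8.83% (6.6 to 11.5) against 0.991%. CAGGAA, without the final base of a heptamer, was in 7.93% against 12.6%, and CCGGAA in 3.42% against 1.26%. The 555 regions were chosen for holding GGAA and no heptamer and their flanking windows, with GGAA in 62.9%, were not, so part of these differences follows from the choice. The other 39 regions had no GGAA within 50 bp of the summit on either strand. In 32 of them (82.1%, 66.5 to 92.5) GGAT was present, against 39.7% (28.8 to 51.5) of their flanking windows, and CCGGAT was present in 11 of 39 (28.2%, 15 to 44.9) and in 0 of the flanking windows (up to 4.62%), windows that had not been chosen for lacking GGAA. GGAT is the core in which the final A of GGAA is replaced, a form that ETS domains are known to accept. These shorter forms were chosen for description after the ranking of all 6-base sequences had been seen. The 3 regions without GGAA that had the most FLI1 reads are shown with GGAT or its complement ATCC in capitals, again from 40 bp before to 40 bp after the summit on the plus strand of mm9.
Susd3, chr13:49338310-49338390: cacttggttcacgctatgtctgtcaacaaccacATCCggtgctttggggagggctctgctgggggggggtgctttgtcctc
1700012B07Rik, chr11:109721603-109721683: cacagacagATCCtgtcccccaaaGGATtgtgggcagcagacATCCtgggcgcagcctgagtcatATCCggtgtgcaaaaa
Myo5c, chr9:75102139-75102219: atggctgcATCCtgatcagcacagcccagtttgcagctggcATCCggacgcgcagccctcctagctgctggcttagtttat
These 3 regions held 240, 231 and 216 FLI1 reads, 3, 1 and 1 RUNX1 reads, and 9, 10 and 12 input reads. They were picked for their high counts, and the 39 regions as a whole had a median of 129 FLI1 reads, where all 1968 had 131. The 3 are among the 11 of 39 that held CCGGAT, read as ATCCGG on the strand printed.

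Among all 1391 sequences of 6 bases present in at least 2% of summit windows, CCGGAA had the highest ratio of summit to flank, with 15.2% (13.6 to 16.9) of summits and 1.32% (0.988 to 1.73) of flanking windows. Yet the most widespread form was CAGGAA, in 63.4% (61.2 to 65.5) of summits and 12.4% (11.4 to 13.5) of flanking windows. A high ratio and a low share thus went together for CCGGAA, which was scarce in the flanks. GGAAGT, the usual right side of the FLI1 site, was at 42.7% (40.5 to 45) of summits and 6.58% of flanks.

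The form of the ETS site differed between these distal regions and promoters. Bins with the same read limits whose centre was within 1 kb of a TSS gave 2566 regions, and nearly the same share of these bins held a heptamer, 81.6% (80.1 to 83.1). But CCGGAA was within 50 bp of the summit in 58.2% (56.3 to 60.1) of promoter regions and in 15.2% of distal ones, and CAGGAA in 26% (24.3 to 27.7) of promoter regions and in 63.4% of distal ones. The 8-base form CCGGAAGT, to which FLI1 is known to bind tightly, was at 22.1% (20.5 to 23.7) of promoter summits and 3.4% (2.65 to 4.3) of distal summits. None of these pairs of intervals overlap. Promoter bins were richer in GC, with a mean of 59.8% against 49.9%, and in CpG, with a median of 28 against 5 in 400 bp, and their flanking windows held CCGGAA in 3.49%. CCGGAA and CCGGAAGT hold a CpG themselves, and the part of base composition in these differences was not tested. Regions more than 50 kb from any TSS, 889 in all, were close to the distal regions: CCGGAA was at 14.1% (11.8 to 16.5) and CAGGAA at 65.9% (62.7 to 69) of their summits, and the intervals overlap those at 5 to 50 kb.

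Sites of other megakaryocyte factors also lay near the FLI1 summits, and they were not the only motifs to do so. RUNX motifs were within 50 bp of the summit in 23.4% (21.5 to 25.3) of the distal regions and in 9.2% (8.31 to 10.1) of flanking windows. At promoter summits the share was 9.86% (8.73 to 11.1) and in their flanks 7.7% (6.98 to 8.46), so promoters also stood above their flanks but by less than the distal regions. The 296 regions at 5 to 50 kb that the RUNX1 limit alone had removed, with input under its limit, held a RUNX motif at 40.2% (34.6 to 46) of summits and an ETS heptamer at 57.8% (51.9 to 63.5). GATA motifs were at 30.5% (28.5 to 32.6) of the distal summits and in 15.4% (14.3 to 16.6) of flanks. The longer GATA forms AGATAAG and TGATAAG were at 9.86% (8.58 to 11.3) of summits against 2.01% (1.59 to 2.5) of flanks, and at promoters at 1.91% against 1.27%. The shorter GATA forms were less common at promoter summits than in their flanks, 7.17% (6.2 to 8.24) against 11.3% (10.4 to 12.2). Over whole 400-bp bins the shorter GATA forms stood in 59.5% (57.3 to 61.7) of distal regions, 57.5% of all bins at that distance and 50.3% (48.7 to 51.9) of bins 2 kb from the regions. The longer forms stood in 18.2% (16.6 to 20), 10.3% and 8.43% (7.59 to 9.35). Regions more than 50 kb from any TSS gave like shares at the summit, 23.1% (20.3 to 26) for RUNX and 32.2% (29.1 to 35.4) for GATA motifs with 8.1% and 18.3% in their flanks, and the summit intervals overlap those at 5 to 50 kb. E-boxes, CAGCTG or CAGATG or CATCTG, which TAL1 and its partners bind, were at 19.2% (17.5 to 21) of summits and in 11.5% (10.5 to 12.5) of flanks. At promoters E-boxes were at 7.25% of summits and in 9.65% of flanks.

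NF-E2, the factor without which megakaryocytes fail to shed platelets, recognises GCTGAGTCA or GCTGACTCA. Few regions held it, 41 of 1968 (2.08%, 1.5 to 2.82) within 50 bp of the summit, against 6 of 3936 flanking windows (0.152%, 0.056 to 0.331), a ratio of 13.7. In 400-bp bins the shares were 4.32% for the regions and 0.911% for all bins at 5 to 50 kb. The AP-1 core TGACTCA, whose complement is TGAGTCA and which is part of the NF-E2 site, was at 6.76% (5.69 to 7.96) of summits and in 2.03% of flanks. GC boxes, GGGCGG, were at 5.39% (4.43 to 6.48) of distal and 35.3% (33.5 to 37.2) of promoter summits. Their shares in the flanking windows were lower in both sets, 1.96% and 10.5%. A match says only that these letters were present, not that the factor was bound.

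**Figure D4:**
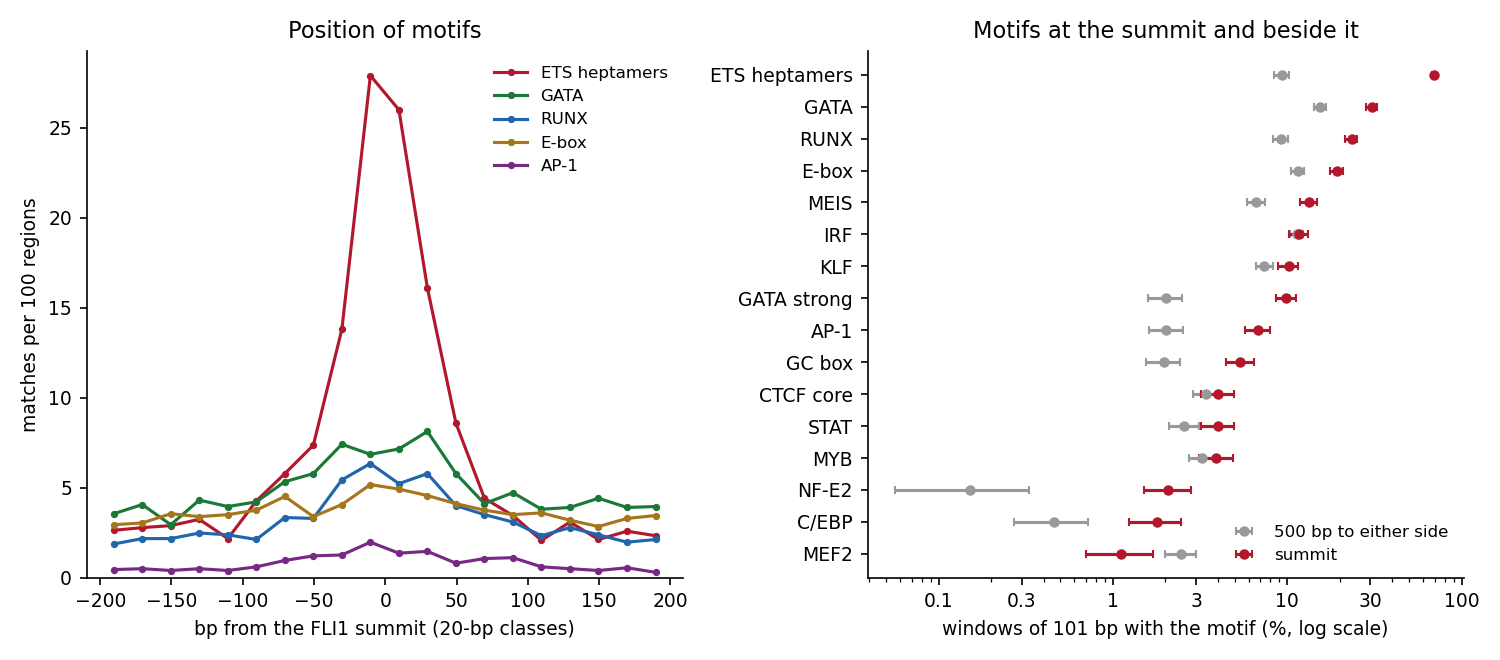
Left, matches per 100 of the 1968 regions (y axis) by distance from the FLI1 summit (x axis, bp). Right, share of windows reaching 50 bp to either side of the summit (red) or of a point 500 bp away (grey) that hold each motif (x axis, %, log scale; bars, exact 95% intervals), where the ETS heptamers reach 69.8% at the summit and 9.32% beside it.

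By protein-coding transcripts, 50.8% (48.6 to 53) of the summits lay in introns, 46.3% outside any such transcript and 2.9% in exons. These shares differed little from those of all bins at 5 to 50 kb, 47.4%, 49% and 3.57%. The summits were 44.8% upstream and 55.2% downstream of the nearest TSS, at a median distance of 17513 bp. Member bins were densest close to genes, 1.04 per 1000 bins at 5 to 10 kb, 0.963 at 10 to 20 kb and 0.724 at 40 to 50 kb. Another region lay within 10 kb of 18.6% of the regions and within 20 kb of 25.9%. Of 1071 regions within the whole record of a protein-coding gene, which can reach beyond those transcripts, 871 lay in the gene with the nearest TSS and 200 in another gene.

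Taken by the nearest TSS, 1565 of 22359 protein-coding genes (7.00%) had a region. A single region was nearest to 1261 genes, 2 to 225, 3 to 64 and 4 or more to 15. Myh9, encoding the non-muscle myosin heavy chain whose mutations cause giant platelets, had the most, with 7. Their highest bins held 284, 225, 211, 193, 183, 149 and 105 FLI1 reads, with 0 to 4 RUNX1 and 4 to 9 input reads. They lay between positions 77603201 and 77686000 of chromosome 15, and all but the region with 284 reads were in introns of Myh9. Distances to the TSS nearest to each ran from 25912 bp downstream to 20277 bp upstream, but not from a single TSS. The region 20277 bp upstream of its nearest TSS was itself in a Myh9 intron. The Myh9 promoter itself, taken as the highest bin with its centre within 1 kb of a TSS, held 131 FLI1 reads. Ski, a repressor of TGF-beta signals, and Runx1 had 5 regions each, and 12 genes tied at 4, among which Prkcq and Ptk2b, which encodes the kinase Pyk2, held the highest bins, with 294 and 277 FLI1 reads. Highest bins of the Runx1 regions held 182, 159, 129, 126 and 108 FLI1 reads and between 0 and 3 RUNX1 reads, and 3 of the 5 lay within the Runx1 gene. At the Fli1 gene 3 regions held 228, 158 and 116 FLI1 reads, 15108 bp upstream, 11594 bp downstream in an intron and 41014 bp upstream, and its promoter held 219. Both genes that encode the precipitated factors were thus among those with several strong distal FLI1 regions.

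Genes with a region more often had a strong promoter too. By the limits used, the centre of a promoter bin lay at least 4 kb from that of any member bin. A promoter bin of 100 or more FLI1 reads was found in 301 of the 1565 genes (19.2%, 17.3 to 21.3), against 2729 of 19582 other genes that had bins at 5 to 50 kb (13.9%, 13.5 to 14.4) and 14.8% of all genes. The difference was larger at the low end: promoters under 20 reads made up 18.5% (16.6 to 20.5) and 45.5% (44.8 to 46.2), and the medians were 46 and 22 FLI1 reads. So most genes with a strong distal region had a promoter with some FLI1 reads but below the limit of 100. The share with a strong promoter was 19.1%, 19.6% and 20.3% for genes with 1, 2 and 3 or more regions, with intervals that overlap.

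The gene lists of the megakaryocyte and platelet program held regions at several times the 7.00% of all genes. These lists were chosen with earlier results of these data known. Their shares are therefore a description only, and the intervals do not cover that choice. Of platelet signalling genes, 21 of 43 (48.8%, 33.3 to 64.5) were nearest to a region, which came to 4.29 regions per 1000 bins at 5 to 50 kb, against 0.811 for all genes. Highest counts there were 294 for Prkcq, 238 for Tbxas1, the thromboxane synthase, 214 for Gnaq, the G protein behind ADP and thromboxane receptors, and 213 for Vav3, an exchange factor below the collagen receptor. Of granule genes, 15 of 38 (39.5%, 24 to 56.6) had a region, led by Slc35d3 with 342 reads, the serotonin transporter Slc6a4 with 184, Nbea with 183, a scaffold of secretory traffic, and Rab27a with 169, a small GTPase of granule release. Slc6a4 had 18 and Nbea 17 FLI1 reads at the promoter, both far fewer than in their regions. Of cytoskeleton and proplatelet genes, 12 of 33 (36.4%, 20.4 to 54.9) had 24 regions in all, 6.13 per 1000 bins, the densest of these lists. Myh9 alone held 7 of these regions, and the rank without it was not tested. Vcl, which encodes vinculin, reached 297 reads, Myh9 284, Actb 241 and the formin gene Diap1 197.

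Of platelet receptors, 11 of 35 (31.4%, 16.9 to 49.3) had a region. F2rl2, a thrombin receptor, reached 179 reads in a region within another gene, Iqgap2, the laminin receptor subunit Itga6 174, the ADP receptor P2ry1 164, and Selp, the P-selectin of alpha granules, 162. Selp had 3 regions and 24 reads at its promoter, P2ry1 1 region and 43 reads. A region had to hold 100 reads and a promoter did not, so a promoter weaker than the region is the usual case by choice: the promoter was the stronger in 143 of the 1565 genes (9.14%) and in 6 of the 75 with a region in the 5 lists of the megakaryocyte and platelet program. Itgb1, an integrin subunit, was one of these 6, with 112 reads in its region and 208 at its promoter, and Tal1, a transcription factor of blood cells, another, with 111 and 163, both picked after their values were seen. Of haematopoietic transcription factors, 17 of 48 (35.4%, 22.2 to 50.5) had a region, led by Egr1 with 252 reads, Fli1 with 228, the ETS gene Elf1 with 209 and Mef2c with 196. At Egr1, an immediate early gene, 4 regions stood within a few kilobases of each other, 4862 to 7405 bp upstream, and held 252, 210, 191 and 138 FLI1 reads. Promoter bins of 100 or more FLI1 reads were common in these 5 lists too. The shares were 45.7% of receptor, 31.6% of granule, 39.4% of cytoskeleton, 27.9% of signalling and 35.4% of transcription factor genes, against 14.8% of all genes.

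The marker lists of other blood and vessel cells were short and their intervals wide, and no difference between lists was tested. None of 14 erythroid genes was nearest to a region, with an exact interval up to 23.2%, but these genes had only 731 bins at 5 to 50 kb in all. Of granulocyte and monocyte genes 2 of 16 (12.5%, 1.55 to 38.3) had one, Mpo with 114 reads and Irf8 with 113. The Mpo region lay within the neighbouring gene Lpo and the Irf8 region in an intron of Gm20388. Endothelial genes reached 4 of 15 (26.7%, 7.79 to 55.1), namely Sox18 with 201, Eng with 176, Egfl7 with 158 and Kdr with 122. The Eng region lay within the whole record of the gene Ak1. The erythroid, granulocyte and endothelial intervals all overlap that of the platelet receptors. The first 2 of these contain the 7.00% of all genes and the endothelial interval lies above it. FLI1 is also made in endothelial cells, and no value here tells cells of another type from megakaryocytes. Of 9 loci that the study names, Tbxas1, Fli1, Runx1 and Rab27b had regions, and Amd1, Itgb3, Tubb1, Casp12 and Nfe2 had none within these limits.

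The study lists 692 genes raised in MK_Mat on its expression arrays, of which 687 entries were matched to 686 genes of the annotation. Of these genes 182 (26.5%, 23.3 to 30) were nearest to a region, against 1383 of 21673 other genes (6.38%, 6.06 to 6.71). In regions, 273 of 1968 (13.9%, 12.4 to 15.5) had one of the 686 as nearest gene, against 3.63% of all bins at 5 to 50 kb. Among the listed genes 8.89% had 2 or more regions, and among the others 1.12%. The study's list came from array genes called present in its samples. The other genes were all remaining protein-coding genes, on the arrays or not and expressed or not. The part of this in the differences was not tested. The highest counts were at Atp2a3, Homer3, Tpst2, Vcl and Prkcq, which reached 371, 339, 325, 297 and 294 FLI1 reads. The study had set this list beside FLI1 binding in the same library, so it is not independent evidence.

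**Figure D5:**
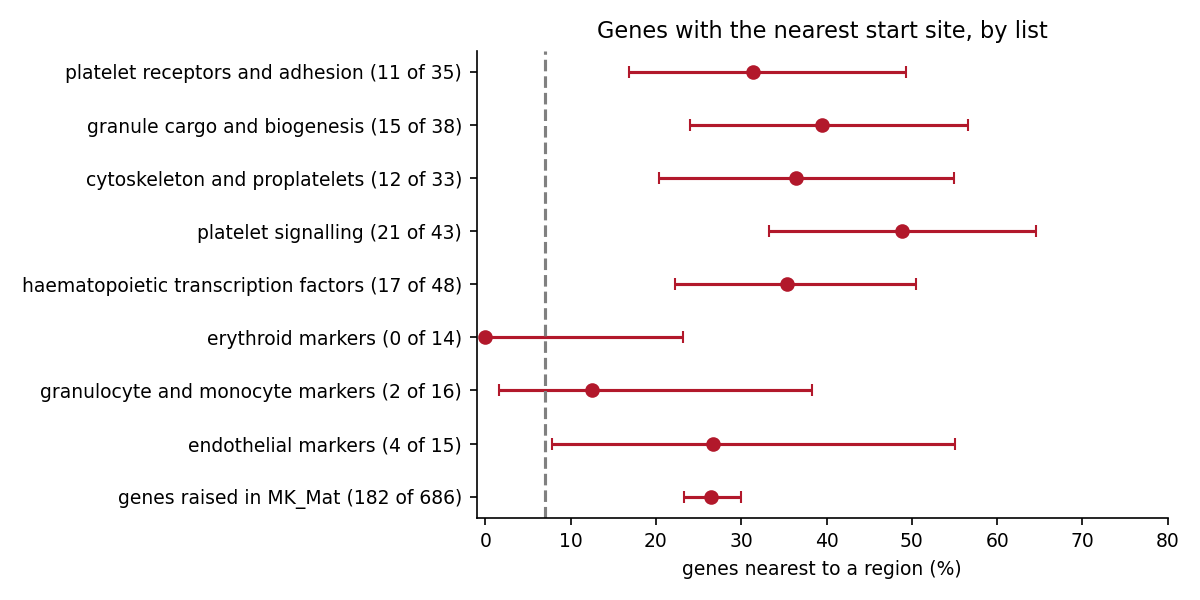
Share of the genes of each list that were nearest to a region (x axis, %; points, share; bars, exact 95% intervals; counts beside the names). The dashed line is the 7.00% of all protein-coding genes, and platelet signalling genes stand farthest from it at 48.8%. The lists were chosen with earlier results of these data known.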

How the data were processed

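Bowtie aligned the reads to mm9, and the authors discarded duplicates and reads with several possible positions; the submitters' processing notes also name SICER 1.1 and MACS 1.4. The deposited files hold read positions (chromosome, start, end, strand), not a signal, so every count given here was made from them. Bowtie's version is not given in the sources used here. In the input file 3.238% of reads repeated a position and strand already seen and were removed.

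Each read was moved inwards from its 5′ end by 63 bp (FLI1) or 80 bp (RUNX1, input). Gene models were GENCODE M1 protein-coding transcripts on mm9. In samples of 12590 FLI1 and 7948 RUNX1 reads, 96.3% and 96.7% matched this reference with at most 2 mismatches. Reads without any mismatch made up 80.4% of the FLI1 and 58.9% of the RUNX1 sample. A summit is the middle of the longest stretch of highest coverage by 126-bp FLI1 fragments. Motifs were searched as exact letters on both strands. The 692-gene list was read from the supplement's page text. Python 3.11.15, numpy 2.4.6, pandas 2.3.3, scipy 1.17.1 and numba 0.67.0 were used. Region finding, summit placement and motif search were tested on simulated reads, with a lower FLI1 minimum and without RUNX1 reads, input reads or the distance limit.

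Named were the 12 regions with most reads, the 5 genes with most regions (ties by highest bin), up to 4 genes a list and loci the study names. Also named were the 5 genes raised in MK_Mat with the highest counts. Itgb1, Tal1 and regions without a GGAA or heptamer were picked after their values were seen. Regions and lists were chosen with earlier results of these data known. Lymphoid marker genes are not reported here. Alternatives changed start sites, read shift, input repeats, bin grid, limits, distance, strand balance and motif window.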

Additional observations from a re-analysis of the deposited data

How the results depend on the processing

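The intron share of 50.8% stayed within its interval under all 11 alternatives (49% to 53%). The number of bins moved from 2098 to 702 with a minimum of 150 FLI1 reads, to 3994 with 75 and to 1217 at 5 to 20 kb, and the number of regions from 1968 to 678, 3657 and 1144; the other 8 alternatives left both within 1.5 times. The ETS heptamer share of 81.4% was 84.4% with a minimum of 150 reads, 78% with 75 and 69.8% within 50 bp of the summit. The GATA share of 59.5% was 63.7% with a minimum of 150 reads and 30.5% within 50 bp of the summit, a narrower window that holds fewer motifs by construction. The share of nearest genes with a strong promoter was 19.2%, and 23.5% with the start sites of gene records only and 22.4% at 5 to 20 kb. With gene records only, strong promoters were still taken from all transcript start sites, so a region could itself be a promoter bin. The cause of either rise was not tested. No paired analysis was possible because each antibody has 1 library. The depth of the RUNX1 file, 3973856 reads, limits every statement on RUNX1 in a single region, and the nearest TSS need not be the gene a region acts on.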

Other observations

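Regions were not spread evenly over the genome. Chromosome 11 held 198 member bins, 1.51 per 1000 bins at 5 to 50 kb, the most of the 21 chromosomes, and chromosome X held 15, 0.108 per 1000, while chromosome Y held 0. Chromosome X also had fewer reads in general, with a mean of 5.85 FLI1 and 2.05 input reads in a bin at that distance against 11.4 and 4.39 on chromosome 11, and a fixed minimum of reads is harder to reach there; its part in the difference was not tested.

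Some other motifs were also counted. MEF2 sequences, TAAAAATA or TATAAATA or TATTTATA on either strand, were less common at the summits than beside them, 1.12% against 2.46%, and in bins 6.15% against 11.2% of all bins at 5 to 50 kb, where mean GC was 49.9% in the regions and 43% in all bins. CTCF cores, AGGGGGC or AGGTGGC, were at 4.01% of summits and 3.43% of flanks, and IRF sequences, AANNGAAA, at 11.7% and 11.4%. Adjacent GGAAGGAA pairs were at 9.96% of summits and 1.14% of flanks. C/EBP sequences were at 1.78% of summits and 0.457% of flanks, a ratio of 3.89, and MEIS sequences at 13.3% and 6.61%. A higher share at the summit was thus not limited to the ETS, RUNX, GATA, E-box, NF-E2 and AP-1 motifs.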
